A study of Mus musculus with 4 samples.

Results

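Nkg7+ lymphocytes of the mouse thymus were chosen by their counts of unique molecular identifiers (UMIs), each of which stands for 1 captured RNA molecule. The rule kept cells with 1000 to 7000 detected genes and at most 10% mitochondrial UMIs. It then asked for at least 2 Nkg7 UMIs and at least 3 UMIs summed over Cd3e, Cd3d, Cd3g, Klrd1 and Gzma. Cells with more than 1 UMI of Flt3 or Cd79a, more than 2 of Siglech, any of Xcr1, or 30 or more of C1qa, C1qb and C1qc together were left out. In all, 324 of 23549 cells in 3 libraries met the rule. Because these genes and Ncr1, 14 in all, chose and split the cells, their values are a description and carry no test.

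The study sorted fluorescent myeloid cells from enzymatically digested thymuses of C57BL/6 mice and sequenced them with the 10x Genomics 3' v3 chemistry. MaFIA mice (Csf1r-EGFP-NGFR/FKBP1A/TNFRSF6) carry EGFP and an inducible suicide construct under the Csf1r promoter, and their libraries came from animals 5 weeks old. CD11c-YFP mice (Itgax-Venus) carry a yellow fluorescent protein under the promoter of Itgax, which encodes CD11c, and their libraries came from animals 9 weeks old. The methods describe the MaFIA thymus donor as female and the CD11c-YFP donors as males, so reporter, age and sex cannot be told apart in any difference between the 2 mouse lines. MaFIA replicate 2 and CD11c-YFP replicates 1 and 2 were used, with 126700210, 138805567 and 185882793 UMIs. Their median depth was 15759 to 17493 UMIs per cell. MaFIA replicate 1 was much shallower, with a median of 3980.5 UMIs per cell, and held 1 such lymphocyte among 5493 cells. Any 2 libraries shared 10 to 25 cell barcodes.

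Nkg7 encodes a membrane protein of cytotoxic granules and is a usual marker of NK cells and killer T cells. Such cells kill targets with perforin (Prf1), which opens membranes, and granzymes (Gzma, Gzmb), which are serine proteases that enter through them. NK cells recognise targets through germline-encoded receptors of the Klr families and signal through the adaptors Tyrobp and Fcer1g, whereas T cells use the CD3 complex and a rearranged receptor. The thymus makes T cells from progenitors that pass a stage without CD4 and CD8, and in which terminal transferase (Dntt) adds bases at receptor gene joints. It also holds innate-like and memory-like T cells that carry the interleukin-2 and interleukin-15 receptor subunit Il2rb.

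Nkg7+ lymphocytes made up 122 of 6219 cells (1.96%) in MaFIA replicate 2, 136 of 7646 cells (1.78%) in CD11c-YFP replicate 1 and 66 of 9684 cells (0.682%) in CD11c-YFP replicate 2. The exact binomial 95% intervals of these shares ran over 1.63% to 2.34%, 1.49% to 2.10% and 0.527% to 0.866%. All intervals, here and below, cover counting error only. The 2 CD11c-YFP libraries differed more from each other than CD11c-YFP replicate 1 did from the MaFIA library. The mean share was 1.47% ± 0.692 (SD, n = 3). The cells were split by Ncr1, which encodes the NK cell receptor NKp46, and by the summed Cd3 genes. NK-like cells (Ncr1 present, no Cd3) numbered 0, 11 and 2 in the 3 libraries, and T-like cells (Cd3 present, no Ncr1) numbered 119, 118 and 63. A further 1, 5 and 0 cells had both, and 2, 2 and 1 had neither. T-like cells were 93.3% ± 5.72 of the Nkg7+ lymphocytes (SD, n = 3 libraries).

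**Figure D1:**
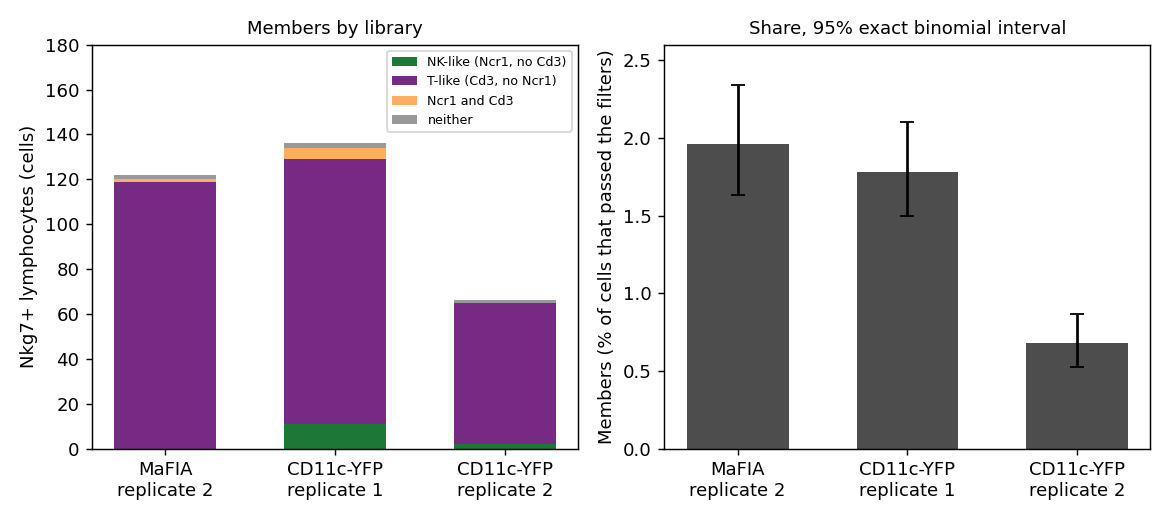
Left, number of Nkg7+ lymphocytes (y axis, cells) in each of the 3 libraries, stacked by Ncr1 and Cd3. Right, the same cells as a percentage of the cells that passed the filters, with exact binomial 95% intervals. The bars reach 122, 136 and 66 cells, nearly all of them T-like, and NK-like cells are visible in the CD11c-YFP libraries.

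Comparison groups from the same libraries were set beside these cells. T-like cells without Nkg7 met the same exclusions, with no Nkg7 UMI and at least 3 Cd3 UMIs, and numbered 177, 368 and 253. Thus 40.2%, 24.3% and 19.9% of the T-like cells of the 3 libraries carried Nkg7 by these definitions. B cell-like cells (at least 3 Cd79a UMIs, no Cd3 or Nkg7) numbered 792, 973 and 1100 and gave the background for genes that B cells should lack. Median depth was 16722, 10710 and 10780 UMIs in Nkg7+ T-like cells, 9534, 8309 and 10778 in T-like cells without Nkg7, and 12765.5, 10705 and 12078.5 in B cell-like cells. Shares of cells with a UMI of a gene were therefore taken after thinning every cell to 5000 UMIs, which lost no cell, and the unthinned share is given beside them.

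The working name of these cells, cytotoxic Nkg7 lymphocytes, did not hold for most of them. Prf1, which encodes perforin, was seen in 1.68%, 9.32% and 1.59% of the Nkg7+ T-like cells of MaFIA replicate 2 and CD11c-YFP replicates 1 and 2 (4.2%, 16.1% and 4.76% unthinned). In B cell-like cells the Prf1 shares were 2.78%, 1.54% and 1.55% (6.69%, 4.62% and 5.27% unthinned), so among the 3 libraries only CD11c-YFP replicate 1 stood clearly above the background. Gzmb UMIs were found in 4.2%, 16.1% and 1.59% of Nkg7+ T-like cells (4.2%, 20.3% and 4.76% unthinned) and in 0% of the B cell-like cells of each library, which allows a share of up to 0.379%, 0.308% and 0.273%.

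The marker Gzma, which the rule itself reads, was most frequent in the MaFIA library. Its share was 47.9%, 16.1% and 14.3% of Nkg7+ T-like cells (64.7%, 18.6% and 19% unthinned). Klrd1, which encodes the CD94 receptor chain and is also read by the rule, ran the other way, at 5.88%, 25.4% and 14.3% (10.1%, 33.9% and 15.9% unthinned). Ms4a4b, a membrane protein of mature T and NK cells that the rule does not read, was seen in 44.5%, 89.8% and 61.9% (78.2%, 94.9% and 76.2% unthinned), against 2.65%, 1.85% and 1.18% of B cell-like cells. T-like cells without Nkg7 held these genes too, given here as means over the 3 libraries in CPM, a scale defined below (± SD). Gzma had 178.5 ± 100.1 CPM in Nkg7+ T-like cells and 149 ± 54.7 CPM in T-like cells without Nkg7. Ms4a4b had 565.8 ± 435 and 245.4 ± 90.8 CPM in the same order, and Klrd1 60.5 ± 43.6 and 14.4 ± 0.77 CPM. For Gzma and Ms4a4b these ranges overlapped, so neither is a trait of the Nkg7+ cells alone. The cells are called Nkg7+ T-like cells here, without a claim that they kill.

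Much of this group carried Dntt. A Dntt UMI was present in 74.8%, 11% and 33.3% of the Nkg7+ T-like cells of MaFIA replicate 2 and CD11c-YFP replicates 1 and 2 (79%, 11% and 34.9% unthinned). The shares were 23.7%, 22% and 33.6% in T-like cells without Nkg7 and 3.41%, 0.308% and 0.455% in B cell-like cells. Il2rb had the reverse order, with 11.8%, 56.8% and 31.7% of Nkg7+ T-like cells (17.6%, 68.6% and 52.4% unthinned), against 7.91%, 15.8% and 13% of T-like cells without Nkg7. In B cell-like cells Il2rb reached 5.56%, 10.3% and 6%, and 13.6%, 22.4% and 15.6% unthinned, so the unthinned MaFIA share lay close to that background.

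Dntt and Il2rb were rarely found in the same cell. After thinning, 0 of 119, 1 of 118 and 1 of 63 Nkg7+ T-like cells carried both, whereas the product of the single shares would be 8.80%, 6.26% and 10.6% of cells. Without thinning, 4, 1 and 3 cells carried both, 90, 12 and 19 carried Dntt alone, 17, 80 and 30 carried Il2rb alone, and 8, 25 and 11 carried neither. The MaFIA library thus held mostly Dntt+ cells, CD11c-YFP replicate 1 mostly Il2rb+ cells, and CD11c-YFP replicate 2 a mixture.

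**Figure D2:**
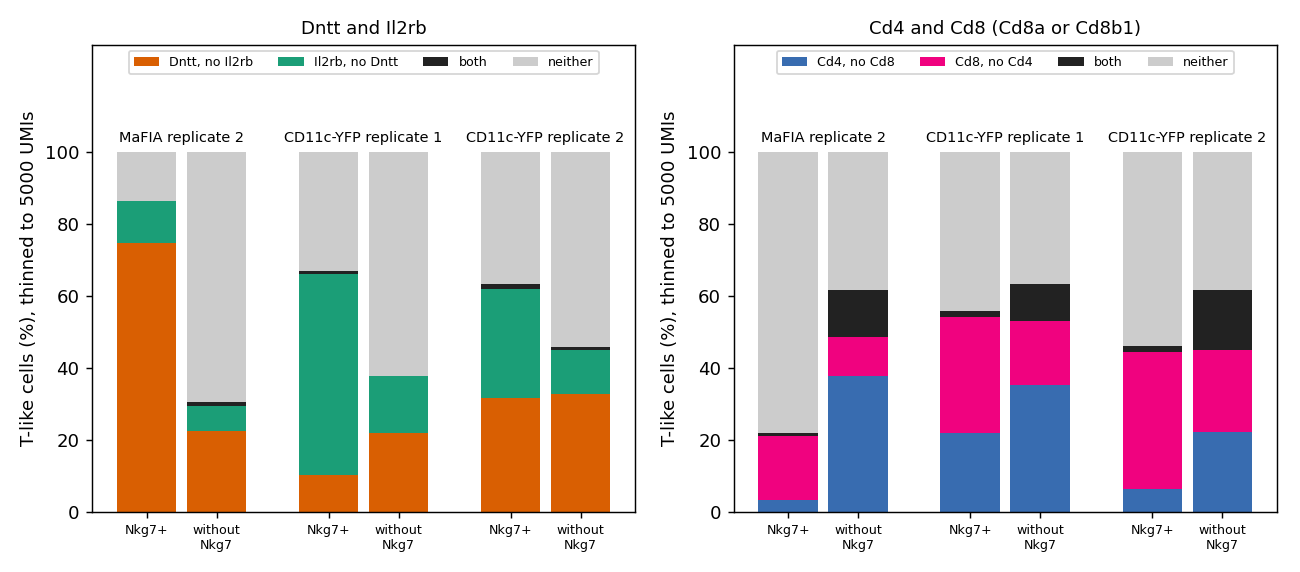
Percentage of T-like cells (y axis, cells thinned to 5000 UMIs) with Dntt or Il2rb UMIs (left) and with Cd4 or Cd8 UMIs (right), for Nkg7+ T-like cells and, to their right, T-like cells without Nkg7, in each library. Dntt fills 74.8% of the MaFIA Nkg7+ bar and 11% of that of CD11c-YFP replicate 1, and the black share with both genes is at most 1.59% in Nkg7+ cells.

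Across genes, the 2 kinds of Nkg7+ T-like cell differed widely. They were defined after their values had been seen, so the levels below are a description with no test, as means over the 3 libraries in CPM (the UMIs of a gene as a share of all UMIs of the group, scaled to 1000000). Dntt+ cells without Il2rb had 522 ± 88.3 CPM of Arpp21, against 6.01 ± 4.5 CPM in Il2rb+ cells without Dntt (SD, n = 3). Cpa3, a carboxypeptidase of mast cells that early progenitors also transcribe, had 267 ± 146 CPM in Dntt+ cells and 0.322 ± 0.557 CPM in Il2rb+ cells. Il2ra, the CD25 receptor chain of immature thymocytes, had 499 ± 75.1 CPM in Dntt+ cells and 21.3 ± 28.4 CPM in Il2rb+ cells. Hes1, a target of Notch, had 650 ± 522 CPM in Dntt+ cells and 4.61 ± 5.03 CPM in Il2rb+ cells.

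In the Il2rb+ cells, genes of mature and memory-like T cells were the higher ones. Ms4a4b had 76 ± 10.1 CPM in Dntt+ cells and 1088 ± 428 CPM in Il2rb+ cells. Trac, the constant part of the T cell receptor alpha chain, had 5 ± 4.46 CPM in Dntt+ cells and 667 ± 47.7 CPM in Il2rb+ cells. Xcl1, a chemokine that draws XCR1+ dendritic cells, was at 0 CPM in the Dntt+ cells of every library and at 372 ± 290 CPM in Il2rb+ cells. Gzmb was likewise at 0 CPM in Dntt+ cells, with 226 ± 165 CPM in Il2rb+ cells, so the Gzmb of the group lay outside these Dntt+ cells. Gzma, which the rule reads, did not divide in this way. It had 265.5 ± 81.4 CPM in Dntt+ cells and 188.4 ± 203.8 CPM in Il2rb+ cells, and the libraries overlapped.

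Over 17120 genes with a UMI in either kind of cell, 10.5% were higher in the Dntt+ cells of all 3 libraries than in the Il2rb+ cells of any, and 7.48% were lower in that sense. Among the 6027 genes with a mean of at least 20 CPM over both kinds, these shares were 18.1% and 12.1%. Of 14 thymocyte stage genes (Dntt itself left out), 8 were higher, 1 was lower and 5 overlapped. Of 22 NK receptor genes, 0 were higher, 11 were lower and 11 overlapped. Several of the 11 lower genes, such as Klrb1c, Klra1 and Klre1, had 0 CPM in the Dntt+ cells of every library. They entered through the Il2rb+ cells alone, as Rag2 and Ptcra of the thymocyte stage genes entered through the Dntt+ cells. The other direction was not open to such genes, so both list counts are descriptions that cannot be weighed against the shares over all genes. Of 18 cell division genes, all with a mean of at least 20 CPM, 6 were higher, 0 were lower and 12 overlapped, among them Mki67. Across single cells, the summed thymocyte stage genes and the summed memory-like and innate T cell genes had Spearman coefficients of -0.26, -0.43 and -0.50 (119, 118 and 63 cells). These coefficients describe cells that share a library, and both sums are taken from the same cell and divided by the same depth. The sums also hold Dntt and Il2rb, the genes that defined the 2 kinds, so the coefficients are not separate from that division.

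**Figure D3:**
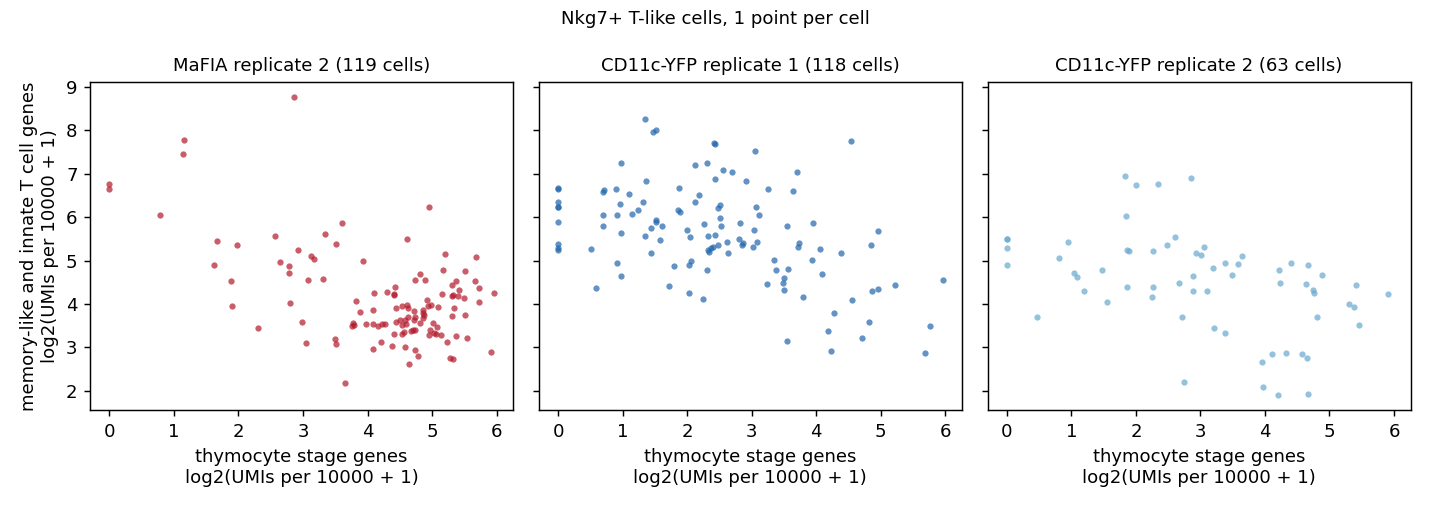
Each point is 1 Nkg7+ T-like cell of the named library. The x axis gives UMIs per 10000 of 15 thymocyte stage genes and the y axis those of 20 memory-like and innate T cell genes, both as log2 of the value plus 1. Dntt is among the genes of the x axis and Il2rb among those of the y axis. Most MaFIA cells sit at the lower right, with a median of 23.0 thymocyte UMIs per 10000, against 4.31 and 7.07 in CD11c-YFP replicates 1 and 2.

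T cell receptor genes followed the same division. Trac was detected in 22.7%, 86.4% and 58.7% of Nkg7+ T-like cells (30.3%, 89% and 68.3% unthinned), against 76.8%, 75.5% and 63.6% of T-like cells without Nkg7. Trdc, the constant part of the delta chain, was detected in 52.1%, 9.32% and 27% of Nkg7+ T-like cells (77.3%, 14.4% and 34.9% unthinned), against 13%, 19% and 19.8% of T-like cells without Nkg7. In the MaFIA library, 56 of 119 thinned Nkg7+ T-like cells had Trdc without Trac and 21 had Trac without Trdc, whereas in CD11c-YFP replicate 1 these numbers were 9 and 100 of 118. Trdc transcripts also occur in progenitors that have not rearranged their receptor genes, so a Trdc UMI alone does not name a gamma delta T cell.

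The gamma constant genes were high in the MaFIA library too. Trgc2 had 508, 115 and 243 CPM in Nkg7+ T-like cells and 15.7, 53.7 and 34.1 CPM in T-like cells without Nkg7, a log2 fold change of 2.90 ± 0.66 (SE) that did not pass the test (adjusted p = 0.125, edgeR quasi-likelihood). Trgc1, Trgc2 and Trgc4 are close copies of each other, and reads may have been split among them. The beta chain gene Trbc1 showed no such gap between these groups. It had 1632, 941 and 1460 CPM in Nkg7+ T-like cells and 1116, 1635 and 1271 CPM in T-like cells without Nkg7, and these ranges overlapped. Within the Nkg7+ T-like cells, Trbc1 had 1682 ± 117 CPM in Dntt+ cells and 979 ± 270 CPM in Il2rb+ cells (SD, n = 3), without overlap. Trbc2 had 2244 ± 278 and 1765 ± 309 CPM in the same order, and the libraries overlapped.

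Most Nkg7+ T-like cells had neither coreceptor in the MaFIA library. After thinning, 78.2%, 44.1% and 54.0% had no Cd4, Cd8a or Cd8b1 UMI (63.9%, 30.5% and 50.8% unthinned), against 38.4%, 36.7% and 38.3% of T-like cells without Nkg7. Cd8 without Cd4 was seen in 17.6%, 32.2% and 38.1% of Nkg7+ T-like cells, against 10.7%, 17.7% and 22.9% of T-like cells without Nkg7. Cd4 without Cd8 was the more frequent in T-like cells without Nkg7, with 3.36%, 22.0% and 6.35% of Nkg7+ cells, against 37.9%, 35.3% and 22.1% of those without. In each library, then, the Nkg7+ cells held the larger share of Cd8-only cells and the smaller share of Cd4-only cells.

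The NK-like cells were few. Only CD11c-YFP replicate 1 had 10 or more, so NK-like and Nkg7+ T-like cells were compared by their summed counts in that library, with no test. Its 11 NK-like cells held 131439 UMIs and its 118 Nkg7+ T-like cells 1568164. By a size rule set after the values had been seen, genes were compared if they had at least 20 UMIs in the NK-like sum, or the equivalent number in the larger T-like sum, and a ratio of 4 was the limit. Of 1071 genes with that many UMIs in either sum, 40 (3.73%) were at least 4-fold higher in NK-like cells and 29 (2.71%) at least 4-fold lower. Of the 40, 37 reached the limit on UMIs in the NK-like sum alone, and of the 29, 27 reached it in the T-like sum alone, so these counts are descriptions of the 2 sums.

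NK receptor genes were among the higher ones. Klra4 and Klra8, which encode Ly49 receptors, had 479 and 282 CPM in NK-like cells and no UMI in Nkg7+ T-like cells, and so were at least 250.5-fold and 147-fold higher against a floor of 3 counts. Klra genes are near-identical copies, so single members are uncertain. Klre1, which encodes an NK receptor chain, had 609 CPM in NK-like cells, against 24.9 CPM in Nkg7+ T-like cells, a ratio of 24.5 (95% interval 16.5 to 36.9). Klrk1, which encodes NKG2D, had 746 CPM in NK-like cells and 43.4 CPM in Nkg7+ T-like cells, a ratio of 17.2 (12.5 to 23.8).

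Signalling and killing genes of NK cells were high in the same sum. Tyrobp, the adaptor DAP12, had 2107 CPM in NK-like cells, against 108 CPM in Nkg7+ T-like cells, a ratio of 19.6 (16.1 to 23.8). Prf1 had 753 CPM in NK-like cells and 18.5 CPM in Nkg7+ T-like cells, a ratio of 40.7 (26.7 to 63.9). Gzmb, at 784 CPM in NK-like cells and 286 CPM in Nkg7+ T-like cells, was 2.74 times higher (2.19 to 3.40) and did not reach 4-fold. Eomes, a T-box factor of NK cells, had 175 CPM in NK-like cells and 14.7 CPM in Nkg7+ T-like cells. Perforin thus set the NK-like sum apart more than Gzmb did.

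Chemokine transcripts were abundant in the NK-like sum. Xcl1 had 3796 CPM in NK-like cells and 334 CPM in Nkg7+ T-like cells, a ratio of 11.4 (10.0 to 12.9). Ccl5, a chemokine of T and NK cells, had 3644 CPM in NK-like cells and 775 CPM in Nkg7+ T-like cells, a ratio of 4.7 (4.22 to 5.23). Itgax, the gene whose promoter drives the reporter, had 251 CPM in NK-like cells, 3.83 CPM in Nkg7+ T-like cells and 20.0 CPM in B cell-like cells. In this library the NK-like sum thus held more Itgax than the Nkg7+ T-like sum, from 33 UMIs in 11 cells. Within the Nkg7+ T-like cells, the Il2rb+ cells without Dntt had 24.5 ± 20.3 CPM of Itgax (SD, n = 3 libraries), from 2.89 to 43.2 CPM. The lowest of these values was that of CD11c-YFP replicate 1, the library of the NK-like sum above.

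T lineage genes were among the lower ones, in cells that had been chosen for the lack of Cd3 UMIs. Bcl11b, a factor of T cell commitment, had 7.61 CPM in NK-like cells and 316 CPM in Nkg7+ T-like cells. Trac had 22.8 CPM in NK-like cells and 584 CPM in Nkg7+ T-like cells, and Trbc2 had 152 and 2020 CPM in the same order. Cd8a had no UMI in NK-like cells and 188 CPM in Nkg7+ T-like cells. Mki67, a gene of dividing cells, had none in NK-like cells and 234 CPM in Nkg7+ T-like cells. The 2 NK-like cells of CD11c-YFP replicate 2 held 15451 UMIs, with 12360 CPM of Xcl1, 2718 CPM of Tyrobp and 1877 CPM of Fcer1g, and no Trac, Bcl11b or Cd8a UMI. Those 2 cells also had 126 UMIs of Gzmc, a granzyme of strongly activated killer cells, against 1 UMI in the 11 cells of CD11c-YFP replicate 1.

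**Figure D4:**
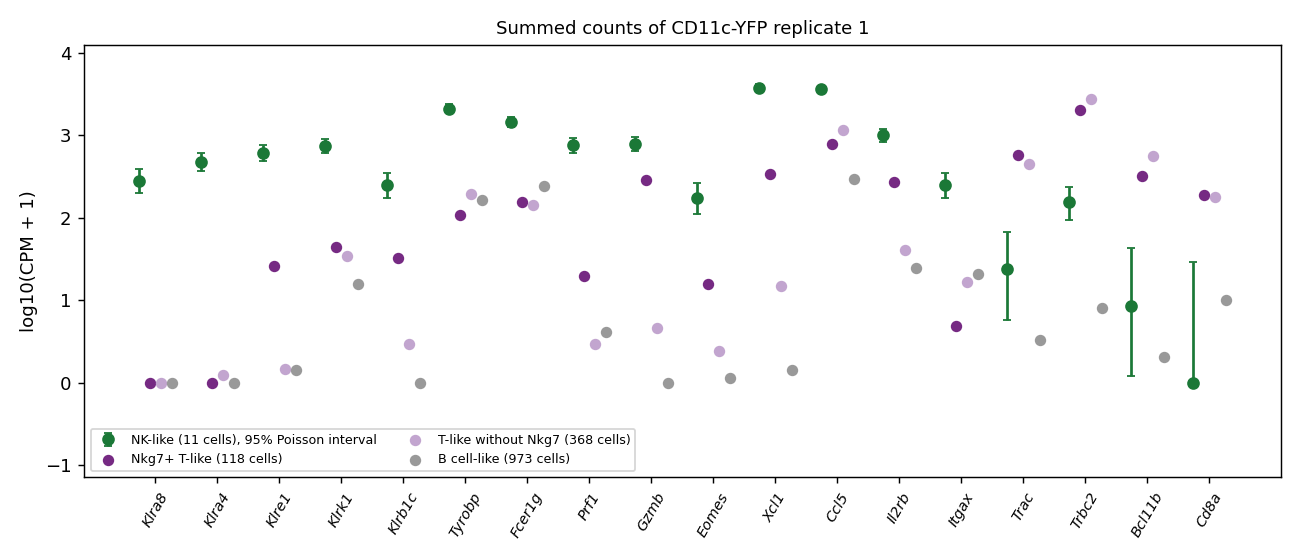
Summed counts of CD11c-YFP replicate 1 as log10 of CPM plus 1 (y axis) for 18 genes (x axis) in NK-like cells, Nkg7+ T-like cells, T-like cells without Nkg7 and B cell-like cells. Bars on the NK-like points are exact Poisson 95% intervals. Tyrobp stands at 2107 CPM in NK-like cells and 108 CPM in Nkg7+ T-like cells, and Trac at 22.8 and 584 CPM.

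The 11 remaining cells belonged to neither class by the rule. All 6 cells with both Ncr1 and Cd3 had 20 to 31 Tyrobp UMIs, 4 to 10 Klre1 UMIs and 6 to 9 Il2rb UMIs, and none had a Dntt UMI. Their Cd3 sums were 1 UMI in 3 cells and 16, 26 and 27 UMIs in the others. Of the 5 cells with neither, 3 had 26, 27 and 12 Cpa3 UMIs, 227, 162 and 117 Plac8 UMIs and at least 32 Trbc1 UMIs. These genes were also high in the Dntt+ T-like cells, but the 3 cells had 0, 42 and 8 Dntt UMIs in the same order. The other 2 had 14 and 19 Klrd1 UMIs, 19 and 28 Tyrobp UMIs and no Cpa3. The labels T-like and NK-like therefore miss some cells on both sides.

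Genes that go with Nkg7 among T-like cells were tested over libraries. UMI sums of Nkg7+ T-like cells and of T-like cells without Nkg7 were compared with edgeR's quasi-likelihood test, with the library as a block and Benjamini-Hochberg adjustment over 10262 genes. In Nkg7+ T-like cells 17 genes (0.166%) rose and 22 (0.214%) fell at an adjusted p of at most 0.05, while 1494 had an unadjusted p under 0.05. The labels do not say that each library is a separate animal, although the methods name 3 mice, and the p-values measure the spread between these 3 libraries. The fit had 2 residual degrees of freedom, and the counts were unstable. Without CD11c-YFP replicate 2 no gene passed in either direction (907 at an unadjusted p under 0.05), without CD11c-YFP replicate 1 there were 27 higher and 64 lower, and without MaFIA replicate 2 there were 226 higher and 289 lower.

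Cpa3 rose, and its highest level was in the Dntt-rich MaFIA library. It had 365, 30.6 and 73.9 CPM in Nkg7+ T-like cells, against 9.61, 0 and 2.04 CPM in T-like cells without Nkg7, and the 2 groups did not overlap. Its log2 fold change was 5.42 ± 0.41 (SE, edgeR adjusted p = 0.0189). Cpa3 lies on chromosome 3 (20269774 to 20296362, GRCm39, minus strand). Myl10, a myosin light chain gene, had 393, 88 and 209 CPM in Nkg7+ T-like cells and 37.6, 25 and 34.9 CPM in T-like cells without Nkg7. It rose by 2.6 ± 0.28 (SE, edgeR adjusted p = 0.0349). When cells with a Dntt UMI were left out of both groups, an alternative added after the data were seen, Myl10 changed sign and was at -0.52 (edgeR adjusted p = 0.628).

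Among genes of killer cells, Gzmb rose. Gzmb (chromosome 14, 56496295 to 56499717, GRCm39, minus strand) had 15.9, 286 and 47.4 CPM in Nkg7+ T-like cells and 0, 3.57 and 4.08 CPM in T-like cells without Nkg7. Its log2 fold change was 5.28 ± 0.61 (SE, edgeR adjusted p = 0.0349). Few cells carried it, since 4.2%, 20.3% and 4.76% of Nkg7+ T-like cells had a Gzmb UMI before thinning. Gzmb was near 0 in T-like cells without Nkg7, as were Cpa3 above and Ifng, Cxcr3, Dapl1 and Lcn4 below. These genes passed the filter on low counts mainly through the Nkg7+ sums, so a fall was hardly open to them. Ctla2a, a cysteine protease inhibitor of T and mast cells, was broader, with 339, 276 and 132 CPM in Nkg7+ T-like cells and 25.8, 22.1 and 24.5 CPM in T-like cells without Nkg7. It rose by 3.28 ± 0.28 (SE, edgeR adjusted p = 0.0216), with at least 2.45 on the log2 scale in each library.

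Of 24 NK receptor genes, 8 were tested, 3 rose and 0 fell. Klra1, a Ly49 receptor with near-identical neighbours, had 20.6, 57.4 and 20.8 CPM in Nkg7+ T-like cells, from 44, 90 and 18 UMIs in 3, 6 and 2 cells, and 0, 0 and 3 UMIs in T-like cells without Nkg7. Its pooled ratio was 110 (95% counting interval 37.0 to 540). Klrb1c, which encodes NK1.1, had 5.15, 31.9 and 12.7 CPM in Nkg7+ T-like cells and 0, 1.9 and 0.291 CPM in T-like cells without Nkg7, and rose by 4.46 ± 0.46 (SE, edgeR adjusted p = 0.0349). Cd160, a receptor of NK and intraepithelial T cells, had 17.3, 55.5 and 80.8 CPM in Nkg7+ T-like cells and 6.12, 12.8 and 12.2 CPM in T-like cells without Nkg7, and rose by 2.21 ± 0.29 (SE, edgeR adjusted p = 0.0475). The median log2 fold change of the 8 was 1.81, against 0.01 over all genes tested. Klra1 and Klrb1c were near 0 in T-like cells without Nkg7 and passed the filter on low counts through the Nkg7+ sums. A fall was thus hardly open to such genes, and the counts and median of this list are a description.

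Ifng, Cxcr3 and Dapl1 rose, with their lowest levels in the MaFIA library and their highest in CD11c-YFP replicate 1. Ifng, the main cytokine of type 1 killer cells, had 2.34, 109 and 9.24 CPM in Nkg7+ T-like cells and 0.437, 5.23 and 0 CPM in T-like cells without Nkg7 (log2 fold change 4.48 ± 0.50 SE, edgeR adjusted p = 0.0349). Its MaFIA value rested on 5 UMIs against 1. Cxcr3, a chemokine receptor of memory T cells, had 1.87, 62.5 and 16.2 CPM in Nkg7+ T-like cells and 0, 7.37 and 0.873 CPM in T-like cells without Nkg7 (3.44 ± 0.39 SE, edgeR adjusted p = 0.0349). Dapl1, a marker of naive-like T cells, had 14, 63 and 28 UMIs in Nkg7+ T-like cells and 2, 9 and 10 in T-like cells without Nkg7 (3.74 ± 0.38 SE, edgeR adjusted p = 0.0349). Lcn4 was the remaining gene among the 10 largest increases of genes with an established symbol, at 3.21 ± 0.40 (SE, edgeR adjusted p = 0.0424). The predicted genes Gm19696, Gm5111 and Gm17590 rose by 4.09, 3.67 and 2.77 on the log2 scale and were left out of that order.

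**Figure D5:**
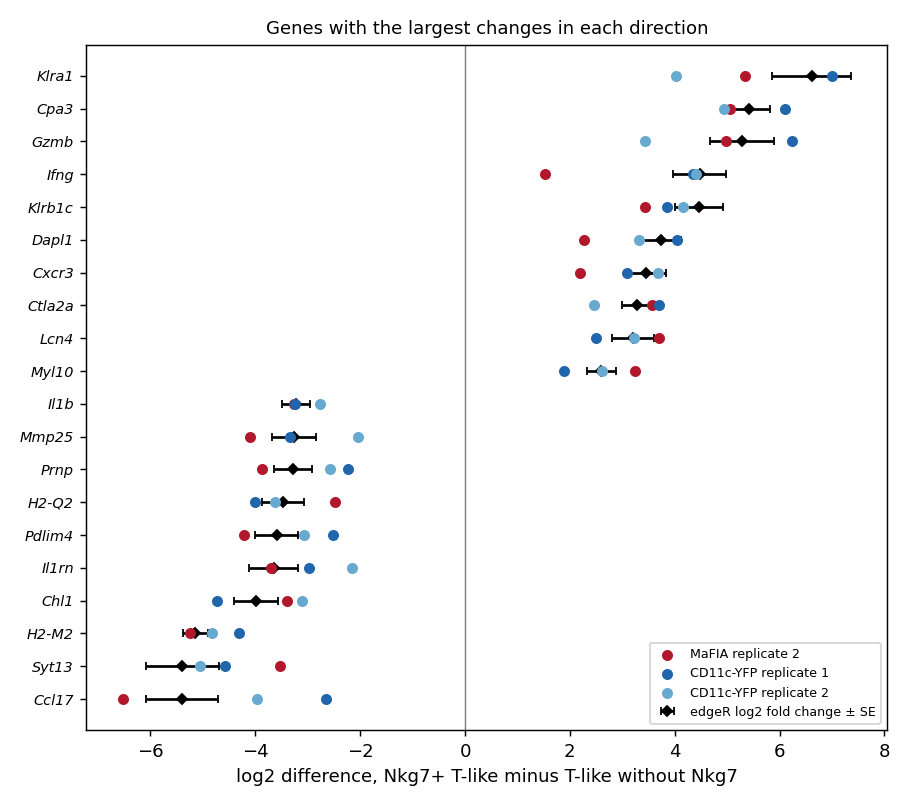
Log2 difference between Nkg7+ T-like cells and T-like cells without Nkg7 (x axis) for the 10 largest increases and the 10 largest decreases that passed (y axis), predicted genes such as Gm19696 left out. Circles give each library, as log2 CPM with a prior count of 1, and diamonds the edgeR log2 fold change with its SE. All circles of a gene lie on the same side of 0, and Ccl17 spreads most among the decreases, with -6.53, -2.66 and -3.97 in MaFIA replicate 2 and CD11c-YFP replicates 1 and 2.

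Rag1 and Satb1, genes of thymocyte development, fell. Rag1, a subunit of the recombinase that rearranges receptor genes, had 11.7, 7.01 and 18.5 CPM in Nkg7+ T-like cells and 91.3, 92 and 121 CPM in T-like cells without Nkg7. It fell by 3.10 ± 0.24 on the log2 scale (SE, edgeR adjusted p = 0.0189). Satb1, a chromatin organiser of thymocytes, had 365, 308 and 311 CPM in Nkg7+ T-like cells and 1159, 1062 and 851 CPM in T-like cells without Nkg7, and fell by 1.64 ± 0.15 (SE, edgeR adjusted p = 0.0309). Dntt itself did not pass, at 1064, 112 and 311 CPM in Nkg7+ T-like cells and 181, 226 and 300 CPM in T-like cells without Nkg7. Rag1 was thus low in the Dntt-rich and the Dntt-poor library alike. Itm2a, a membrane protein induced by positive selection, had 46.4, 96.9 and 125 CPM in Nkg7+ T-like cells and 701, 581 and 305 CPM in T-like cells without Nkg7 and did not pass (-2.59 ± 0.51 SE, edgeR adjusted p = 0.0984).

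The other large decreases included genes of dendritic and myeloid cells. Ccl17, a chemokine of mature dendritic cells, had 5.62, 3.19 and 3.46 CPM in Nkg7+ T-like cells and 520, 23.8 and 63.2 CPM in T-like cells without Nkg7 (-5.41 ± 0.69 SE, edgeR adjusted p = 0.0463). Il1b, an inflammatory cytokine, had 1.41, 9.57 and 6.93 CPM in Nkg7+ T-like cells and 16.6, 99.4 and 51.5 CPM in T-like cells without Nkg7 (-3.22 ± 0.26 SE, edgeR adjusted p = 0.0189). H2-M2, a class I gene of the MHC, had 6.09, 1.28 and 4.62 CPM in Nkg7+ T-like cells and 231, 35.9 and 148 CPM in T-like cells without Nkg7, with the smallest adjusted p of all genes tested (-5.14 ± 0.24 SE, edgeR adjusted p = 0.00314). Syt13 had 1 UMI in all Nkg7+ T-like cells and 121 in T-like cells without Nkg7. Chl1, Il1rn, Pdlim4, H2-Q2, Prnp and Mmp25 fell by 3.26 to 3.98 on the log2 scale.

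Dendritic cell RNA moved with these decreases. The 13 dendritic cell markers summed to 1127, 2672 and 5581 CPM in Nkg7+ T-like cells, with 0 to 1 of them at 0, and to 18177, 6803 and 12429 CPM in T-like cells without Nkg7, with none at 0. Cells with over 1% of their UMIs from H2-Aa, H2-Ab1 and Cd74 were 0%, 4.24% and 3.17% of Nkg7+ T-like cells and 22.6%, 8.70% and 15.0% of T-like cells without Nkg7. With such cells left out of both groups, 47 genes rose and 57 fell, and 16 of the 17 increases and 15 of the 22 decreases were called again. Ccl17 and Prnp were not called there. Of the 12 dendritic cell markers tested, 1 fell, none rose, and the median log2 fold change was -2.08, against 0.01 over all genes. The part of this RNA in the remaining decreases was not tested.

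The other gene lists held few calls. Of 14 tested genes of cytotoxic granules and death ligands, 1 rose (Gzmb) and 0 fell, with a median of 0.15. Ctsw, a cathepsin of killer cells, had 61.9, 215 and 159 CPM in Nkg7+ T-like cells and 32.8, 29.5 and 39.6 CPM in T-like cells without Nkg7, and did not pass (1.97 ± 0.39 SE, edgeR adjusted p = 0.1). Of 20 receptor chain and coreceptor genes, 0 passed. Of 18 cytokine receptor genes, 0 passed, although Il2ra had 357, 122 and 192 CPM in Nkg7+ T-like cells and 62.9, 59.2 and 50.1 CPM in T-like cells without Nkg7 (1.83 ± 0.26 SE, edgeR adjusted p = 0.0541). Of 17 memory-like and innate genes, 1 rose (Cxcr3), and Il2rb was at 29.99, 269 and 124 CPM in Nkg7+ T-like cells and 22.3, 39.5 and 31.7 CPM in T-like cells without Nkg7 (1.82 ± 0.46 SE, edgeR adjusted p = 0.158).

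Plac8 and Runx3 lay just outside the threshold. Plac8, a small cysteine-rich protein gene of progenitors and innate lymphocytes, had 3126, 894 and 822 CPM in Nkg7+ T-like cells and 366, 364 and 170 CPM in T-like cells without Nkg7 (2.22 ± 0.31 SE, edgeR adjusted p = 0.0523). Runx3, a factor of the CD8 and NK lineages, had 140, 228 and 210 CPM in Nkg7+ T-like cells and 71.6, 90.6 and 93.5 CPM in T-like cells without Nkg7 (1.16 ± 0.17 SE, edgeR adjusted p = 0.0569). In neither gene did the groups overlap.

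By sign alone, 18.6% of all genes tested were higher in Nkg7+ T-like cells of each library and 20.3% lower in each. Of 8 NK receptor genes, 5 (62.5%) were higher in each library and 0 lower. Some of these, such as Klra1 and Klrb1c, passed the filter on low counts through the Nkg7+ sums alone. Their sign was therefore largely set by the filter, and this share cannot be weighed against that of all genes. Of 18 cell division genes, 6 (33.3%) were higher in each library and 0 lower, with a median log2 fold change of 0.24. Their sum was 8641, 4719 and 5096 CPM in Nkg7+ T-like cells and 3995, 5328 and 6335 CPM in T-like cells without Nkg7. As a sum they were thus higher in the MaFIA library and lower in both CD11c-YFP libraries. Of 15 T lineage transcription factors, 0 were higher and 6 lower in each library, with a median of -0.53, and Satb1 was the 1 that passed. Of 14 thymocyte stage genes, 0 were higher and 6 (42.9%) lower in each library, with a median of -0.63, and Rag1 and Rmnd5a passed.

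Promoters of 3 of these genes are shown because Nkg7 defines the cells and Gzmb and Cpa3 are 2 increases that differed between the cells, Gzmb being higher in the Il2rb+ and Cpa3 in the Dntt+ ones. Each window runs 5′ to 3′ on the gene's strand, from 250 bases before the start to 50 after it (RefSeq, GRCm38.p6), and capitals mark TGTGGT, the core letters bound by RUNX factors, or its reverse complement ACCACA. The windows are chr7:43436888-43437187 on the plus strand, and chr14:56262285-56262584 and chr3:20242132-20242431 on the minus strand.
Nkg7: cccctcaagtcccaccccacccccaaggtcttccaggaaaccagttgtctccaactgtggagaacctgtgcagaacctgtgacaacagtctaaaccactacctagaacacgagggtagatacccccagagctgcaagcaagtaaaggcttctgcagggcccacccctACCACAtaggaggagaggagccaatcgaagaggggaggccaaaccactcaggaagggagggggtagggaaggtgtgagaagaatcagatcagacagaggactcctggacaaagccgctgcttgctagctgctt
Gzmb: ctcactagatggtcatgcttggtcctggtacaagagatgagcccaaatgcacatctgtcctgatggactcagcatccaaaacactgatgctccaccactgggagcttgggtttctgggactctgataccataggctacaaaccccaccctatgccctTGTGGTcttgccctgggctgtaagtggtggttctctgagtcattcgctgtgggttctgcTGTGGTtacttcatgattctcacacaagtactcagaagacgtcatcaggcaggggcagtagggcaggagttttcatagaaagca
Cpa3: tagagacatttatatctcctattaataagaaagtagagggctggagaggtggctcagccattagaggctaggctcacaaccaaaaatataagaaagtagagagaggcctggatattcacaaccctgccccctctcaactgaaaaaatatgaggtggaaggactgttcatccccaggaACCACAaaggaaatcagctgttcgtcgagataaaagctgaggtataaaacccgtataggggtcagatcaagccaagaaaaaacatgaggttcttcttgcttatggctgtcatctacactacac

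The 6 letters began 83 bases before the start of Nkg7, 93 and 34 bases before that of Gzmb, and 73 bases before that of Cpa3. They occurred on either strand in 5506 of all 32851 promoter windows (16.8%). Of the 17 increases, 14 had a window and 6 of these (42.9%) held the letters, namely Cd160, Cpa3, Cxcr3, Gzmb, Klra1 and Klrb1c. Of the 22 decreases, 20 had a window and 2 (10.0%) held them. The 42.9% and 10.0% count genes, each held if any of its windows had the letters, while the 16.8% counts windows. The units differ, so these shares are not directly comparable. A match is a description of the sequence, and no binding was measured.

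The sort was on reporter fluorescence, and little reporter RNA was found in these cells. A YFP UMI was present in 7.63% and 4.76% of Nkg7+ T-like cells of CD11c-YFP replicates 1 and 2 (15.3% and 12.7% unthinned), against 12% and 9.49% of T-like cells without Nkg7 and 59.0% and 59.6% of B cell-like cells. Among NK-like cells of CD11c-YFP replicate 1 it was present in 5 of 11 (45.5%, exact interval 16.7% to 76.6%) after thinning and in 6 (54.5%) before it. EGFP was detected in 0 of 119 Nkg7+ T-like cells of the MaFIA library and in 0.253% of its B cell-like cells. The NK-like cells thus held both more Itgax and more often YFP than the Nkg7+ T-like cells of their library.

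The MaFIA library also stood apart in genes that respond to handling. The 17 immediate early and heat shock genes summed to 1891, 4104 and 5230 CPM in Nkg7+ T-like cells, to 2367, 4442 and 5900 CPM in T-like cells without Nkg7 and to 2150, 4395 and 6191 CPM in B cell-like cells. The MaFIA value was the lowest in each group of cells, and its part in the differences between libraries was not tested. B cell markers summed to 207 to 291 CPM in Nkg7+ T-like cells and 197 to 394 CPM in T-like cells without Nkg7, against 12357 to 32173 CPM in B cell-like cells. A caller built on simulated doublets, used as an alternative only, marked 0, 5 and 2 of the Nkg7+ lymphocytes.

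Cells just inside and just outside the Nkg7 threshold can be set side by side. Cells with 2 Nkg7 UMIs, just inside, numbered 16, 13 and 9, and those with 1 UMI that met the other conditions numbered 20, 23 and 17. Dntt stood at 1825, 82.7 and 539 CPM with 2 Nkg7 UMIs, against 703, 486 and 398 CPM with 1. Trac stood at 4.27, 433 and 342 CPM with 2 Nkg7 UMIs, against 238, 259 and 334 CPM with 1. The members at the threshold were thus rich in Dntt and poor in Trac in the MaFIA library, from 16 cells. In the CD11c-YFP libraries they held both genes, as did the cells just outside in every library.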

How the data were processed

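Single-cell UMI counts were measured in 4 sorted thymus libraries. The deposited counts per gene and barcode were made by the authors with Cell Ranger (bcl2fastq 2.20 and STAR 2.7.9a in the submitters' processing notes, build GRCm39) and were not normalized. Of 55418 gene identifiers, 54749 matched GENCODE M39. Deposited filtered barcodes were re-filtered as described, with no removal of doublets before the main analysis. Counts were summed per library and cell group, groups with at least 10 cells in a library entering 1 fit in edgeR 4.0.16 (R 4.3.3, filterByExpr, TMM, library block), which also held the NK-like sum of CD11c-YFP replicate 1. The library is the block because its groups of cells come from the same thymus. Genes read by the rule got no test. NK-like cells reached 10 in 1 library, so their planned test could not be made. Named genes were the 10 largest changes per direction with an adjusted p of at most 0.05, 1 sign throughout the 3 libraries, 50 or more UMIs and a symbol that is not a predicted (Gm, Rik) name, and members of 25 gene lists. Members, lists and rule were chosen with earlier results of these data known. On simulated counts of the T-like comparison (10272 genes), 50 genes were changed at each fold size. Of these, 2 were recovered at 1.5-fold, 12 (24.0%) at 2-fold, 42 (84.0%) at 4-fold and 49 at 8-fold. Beside them, 16 of 10072 unchanged genes were called. False calls were thus a larger share of all calls than the adjusted p threshold of 0.05 stands for. Alternatives were DESeq2 1.42.0, other filters, scaling and gates, cells without doublets, thinned or split counts, and each library left out. Python 3.11.15 with scipy 1.17.1 gave shares and intervals.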

Additional observations from a re-analysis of the deposited data

Results flagged for a closer look

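In 3 genes of the lists, the difference between Nkg7+ T-like cells and T-like cells without Nkg7 had 1 sign in the MaFIA library and the other sign in both CD11c-YFP libraries, with a size of at least 1 on the log2 scale in each. Xcl1, a chemokine gene, was at -1.22 in MaFIA replicate 2 and at 4.61 and 4.84 in CD11c-YFP replicates 1 and 2. Ly6c2, a surface protein gene of memory-like T cells, was at -1.01 in MaFIA replicate 2 and at 2.38 and 1.66 in CD11c-YFP replicates 1 and 2. Ccnb1, a cyclin of dividing cells, was at 1.09 in MaFIA replicate 2 and at -1.10 and -1.03 in CD11c-YFP replicates 1 and 2. The lists hold 349 genes, not all of them tested. The share of all tested genes that meet this condition is not given here, so the number of flagged genes is a description. The difference between the mouse lines was not tested, since 1 MaFIA library gives no spread, and reporter, age and sex cannot be told apart.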

How the results depend on the processing

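The count of genes that differed between Nkg7+ T-like cells and T-like cells without Nkg7 (17 higher and 22 lower) depended on the processing, while the direction of the 39 genes held in each setting in which they were tested, but for that of Myl10. The higher and lower counts were 42 and 128 with DESeq2, 315 and 848 with no filter on low counts, 28 and 72 without TMM factors, 42 and 120 with at least 3 Nkg7 UMIs, 7 and 10 with a mitochondrial limit of 5%, 38 and 109 without simulated doublets, 47 and 57 with at most 1% antigen presentation RNA, 26 and 101 with split counts and 38 and 66 with cells thinned to 5000 UMIs. Leaving out a library gave 0 to 226 higher and 0 to 289 lower genes. With no replicate block, and so no pairing of groups within a library, 12 rose and 29 fell, of which 4 and 12 were among the 17 and 22. In alternatives added after the data were seen, 16 and 22 genes were called without the NK-like sum, and 356 and 543 with cells without Dntt only, where Myl10 turned to -0.52. The causes were not tested. The mean share of Nkg7+ lymphocytes moved by less than the SD between libraries under other gates and with each library left out, and so did the shares of cells with Dntt, Il2rb, Ms4a4b, Plac8, Trac and Gzmb when unthinned and with each library left out, the settings run for them. With 63 to 119 Nkg7+ T-like cells per library and 13 NK-like cells in all, 2-fold changes were mostly beyond reach of the test.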
